A study of Homo sapiens with 24 samples.

Results

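The genes examined here encode the subunits of the acetyltransferase complexes ATAC (Ada2a-containing) and SAGA (Spt-Ada-Gcn5-acetyltransferase). They were taken from a list of 32 genes and looked up by Ensembl identifier among the 60279 genes of each count table. Between ATAC and SAGA, 10 genes are found only in ATAC (ATAC-only), 4 are shared by both and 18 are found only in SAGA (SAGA-only). These classes do not count other complexes, to which some of the subunits also belong. All 32 were present, and all 32 were among the 19997 genes that were tested. RNA was profiled in SW872, an established human liposarcoma line, in 8 groups of 3 libraries. The confluent empty vector (EV) was the control of the fusion proteins TAZ-CAMTA1 and YAP-TFE3, of TAZ4SA and YAP5SA, in which serines phosphorylated by the Hippo pathway kinases are replaced by alanines, and of full-length TFE3. These 6 groups were collected 48 h after confluence. Full-length CAMTA1 and its own empty vector (EVsub) were collected before confluence. All groups carried a Flag-tagged construct or the empty vector from a stable retroviral transduction, so expression was driven by the vector in cells that kept their own YAP and TAZ, and SW872 cells are not the endothelial cells in whose tumors these fusions arise. The study describes its RNA-seq replicates as biological triplicates.

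Both complexes place acetyl groups on histones at active genes. Each is built around the acetyltransferase KAT2A (GCN5) or its paralog KAT2B (PCAF), together with TADA3, SGF29 and an ADA2 protein, TADA2A in ATAC and TADA2B in SAGA. ATAC adds another acetyltransferase, KAT14, and the chromatin readers YEATS2 and ZZZ3. SAGA adds a core of SPT, ADA and TAF proteins, a deubiquitinase module that removes ubiquitin from histone H2B, the activator-binding protein TRRAP and a pair of splicing factors. The study followed the ATAC subunits YEATS2 and ZZZ3 in cells with the fusion proteins, and the comparisons below ask how the RNA levels of the subunits themselves differed between the constructs.

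Library totals lay between 19700277 and 35287476 counts, and the lowest count of any subunit gene in a library was 164. Of the genes that encode the constructs, CAMTA1 was counted at 144 ± 7.14 CPM (counts scaled to a library of fixed size, mean ± SD, n = 3) in TAZ-CAMTA1 against 21.4 ± 2.05 CPM in EV, and at 124 ± 8.09 CPM in CAMTA1 against 22.9 ± 1.23 CPM in EVsub. TFE3 was at 283 ± 49.6 CPM in YAP-TFE3 and 336 ± 19.3 CPM in TFE3 against 119 ± 10.1 CPM in EV, and YAP1 at 253 ± 4.99 CPM in YAP5SA against 128 ± 12.5 CPM. In YAP-TFE3, YAP1 was at 153 ± 16.0 CPM (log2 fold change 0.26, adjusted p = 0.0341). WWTR1, which encodes TAZ, was at 181 ± 2.15 CPM in TAZ-CAMTA1 and did not pass (-0.17, adjusted p = 0.236). WWTR1 was lower in the libraries labelled TAZ4SA (134 ± 0.539 CPM) than in EV (204 ± 20.3 CPM), although the label names a TAZ construct. It was lower still in YAP5SA (68.8 ± 1.66 CPM) and also below EV in YAP-TFE3 (126 ± 3.2 CPM). Counts per gene do not separate construct RNA from that of the cells' own WWTR1, and the label was not tested. The study shows Flag-tagged TAZ4SA by western blot in SW872 cells. Every direction given below for the libraries labelled TAZ4SA holds for the libraries that carry the label. The 10 genes of a cell-cycle list (among them MKI67, PCNA and RRM2) summed to 2343 to 2553 CPM in the EV libraries, 890 to 1324 CPM in YAP-TFE3 and 3817 to 3973 CPM in EVsub, and to between 2270 and 2912 CPM in TAZ-CAMTA1, the libraries labelled TAZ4SA and YAP5SA. Of markers of other cell types, the summed level was 0.926 to 4.42 CPM for epithelial, 0.0662 to 1.43 CPM for blood, 13.2 to 131 CPM for 4 endothelial and 64.2 to 370 CPM for 6 adipocyte genes, while 5 mesenchymal genes summed to 1699 to 7267 CPM. These last lists differed between groups, and their ranges stand beside the results they move with. The sums follow a few genes of each list. ADIPOQ had 0 counts in every library, and FABP4, PLIN1 and CEBPA reached at most 0.748, 1.24 and 3.78 CPM. PPARG reached 100 CPM and LPL 268 CPM. Of the mesenchymal genes, FN1 reached 6263 CPM, VIM 1154 CPM and the others at most 194 CPM. Of the endothelial genes, CDH5 and KDR reached 64.1 and 67.1 CPM, PECAM1 and VWF at most 9.32 and 6.83 CPM. In EV the libraries summed to 4538 to 5418 CPM for mesenchymal, 149 to 223 CPM for adipocyte and 79.8 to 119 CPM for endothelial genes. All libraries came from the SW872 line, so these lists are read as expression of their genes and not as numbers of cells of a type. In bulk RNA, fewer cells expressing a gene and less RNA per cell cannot be told apart.

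Per kilobase of exon, the subunits differed widely in level in the EV libraries, as the plot of per-length levels shows. The highest were the small splicing factor SF3B5 (93.3 ± 6.40 CPM per kb, n = 3), the ubiquitin protease USP22 (57.0 ± 3.57), the histone-fold protein POLE3 (47.4 ± 1.08), SF3B3 (42.0 ± 1.74) and WDR5 (37.4 ± 1.89), a scaffold shared with other chromatin complexes. TADA3 (27.9 ± 3.00), KAT2A (27.5 ± 1.91), HCFC1 (27.5 ± 1.40) and ATXN7L3 (22.0 ± 1.47) followed, of which TADA3, KAT2A and HCFC1 did not differ beyond their spread. YEATS2 (11.5 ± 0.240), CHRAC1 (11.5 ± 0.717), TAF9B (11.6 ± 2.00), TAF10 (11.8 ± 0.905), TRRAP (12.4 ± 0.821) and SUPT7L (13.7 ± 0.523) lay in the middle, all in CPM per kb. KAT14 (7.91 ± 0.225), ENY2 (7.82 ± 0.440), TAF6L (7.15 ± 0.518), KAT2B (5.59 ± 0.243), TADA2B (5.29 ± 0.399), ZZZ3 (5.17 ± 0.368) and TADA1 (5.06 ± 0.230) were lower. SGF29 (4.78 ± 0.473), TAF5L (4.76 ± 0.0943), DR1 (4.45 ± 0.562), MBIP (4.40 ± 0.162), SUPT20H (3.53 ± 0.0762), TAF12 (2.99 ± 0.10) and TADA2A (2.77 ± 0.172) came next. The lowest were ATXN7 (1.71 ± 0.114), SUPT3H (1.66 ± 0.154) and TAF9 (1.34 ± 0.0724), on the same scale of CPM per kb. The order in the middle and lower part of the list depends on the length used: per kb of the longest transcript, ENY2 was at 17.9, SUPT20H at 10.1, MBIP at 9.38 and TAF12 at 7.84 CPM per kb. TAF9 shares part of its exons with AK6, KAT14 with PET117 and KAT2A (405 bases) and TAF10 (1022 bases) with unnamed genes, all on their own strand, TAF10 also overlaps ILK on the other strand, and the authors' counting rule for shared bases was not given in the sources used here, so levels of these genes are uncertain.

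**Figure D1:**
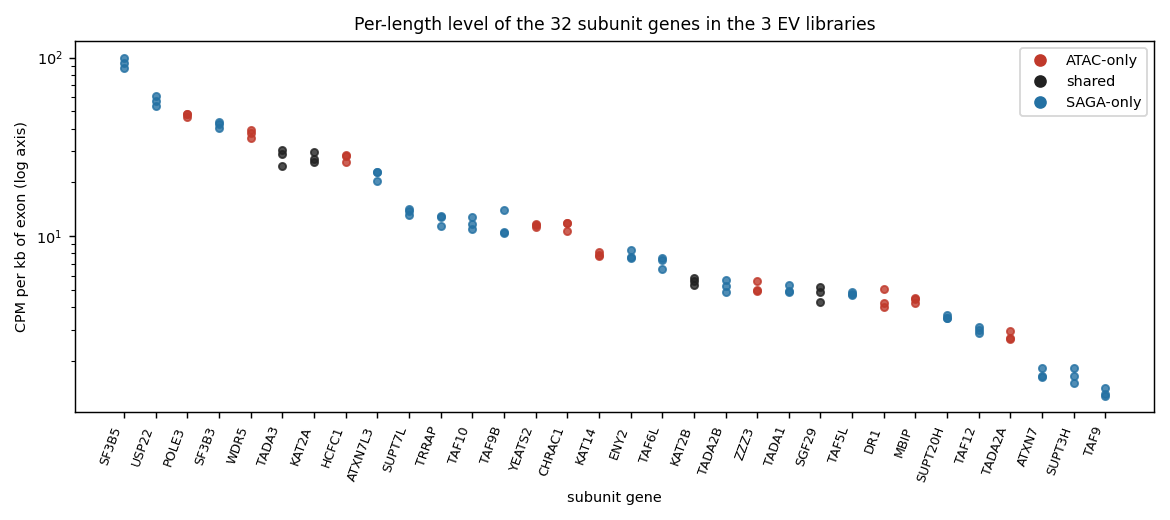
Level of each of the 32 subunit genes in the 3 confluent empty vector libraries, in CPM per kb of exon on a log axis, ordered by mean and coloured by class. The order runs from SF3B5 at 93.3 to TAF9 at 1.34 CPM per kb, with genes of the 3 classes interleaved.

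Across the 8 groups the subunits moved little compared with other genes. The median subunit had a highest group mean 1.51 times its lowest, against 2.14 times for the median of all genes tested and 1.76 times for the 10014 genes at or above the lowest subunit's mean of 10.8 CPM. A total of 6 subunits, or 18.8%, spanned more than a 2-fold range, against 36.6% of those 10014 genes: TAF9B (3.31-fold), KAT2B (2.90-fold), ZZZ3 (2.50-fold), SUPT3H (2.15-fold), ENY2 (2.11-fold) and MBIP (2.03-fold). TAF12 (1.10-fold), TADA2B (1.14-fold) and YEATS2 (1.20-fold) varied least. In the comparisons with an empty vector, 9 of 10 ATAC-only genes, 4 of 4 shared genes and 13 of 18 SAGA-only genes were called at least once, where called means a Benjamini-Hochberg adjusted p under 0.05 in edgeR. These 26 subunits are 81.2% of the list, and 80.7% of all genes tested, and 91.8% of the 10014 genes at or above the lowest subunit's level, were called at least once in the same 7 comparisons. The 6 that were never called there were YEATS2, TADA2B, TAF9, TAF10, TAF12 and SF3B5. The plot of log2 fold changes gives all members in these comparisons.

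**Figure D2:**
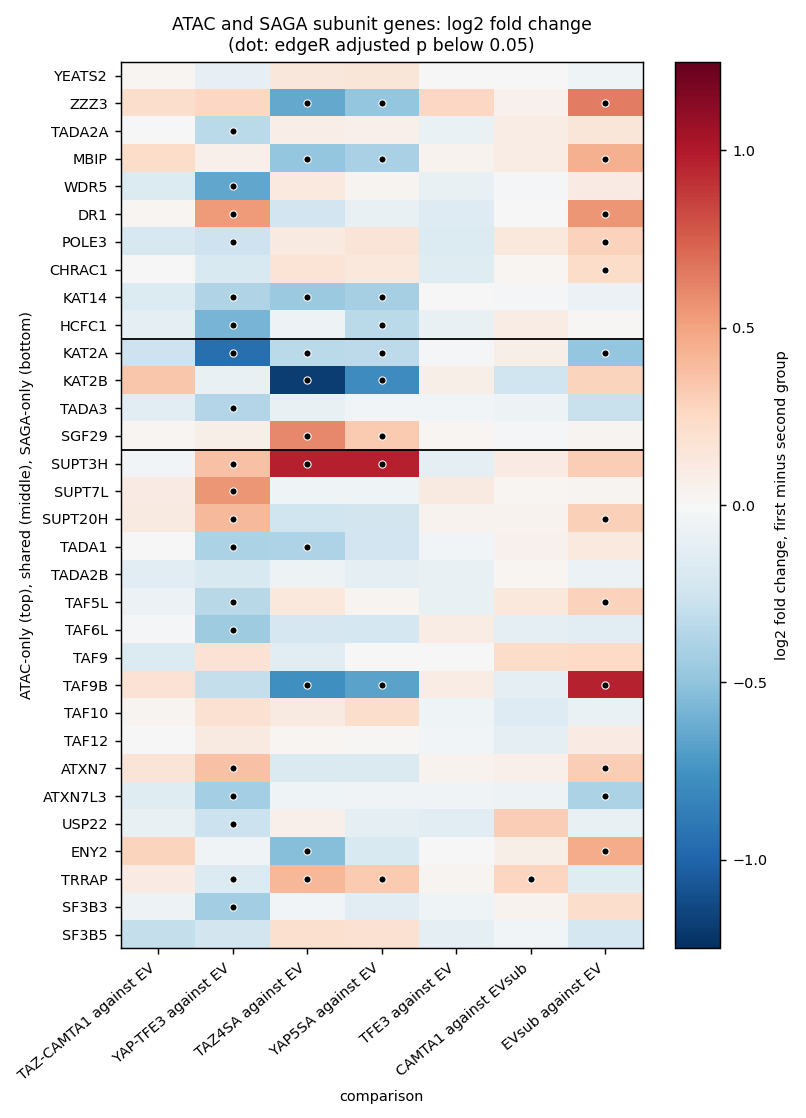
Log2 fold change (first group minus second) of the 32 subunit genes, in rows grouped as ATAC-only, shared and SAGA-only, in the 7 comparisons with an empty vector, in columns. A dot marks an edgeR adjusted p under 0.05. KAT2A is low in YAP-TFE3, the libraries labelled TAZ4SA, YAP5SA and EVsub, while KAT2B is low in YAP5SA and the libraries labelled TAZ4SA, and the TFE3 column holds no dot.

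The promoter sequences of KAT2A, KAT2B, KAT14, MBIP and TAF6L are shown as examples, so that the window searched for motifs can be read. They do not stand for the share of subunits with a motif, which is given after the sequences. RefSeq promoters (GRCh38.p14, 250 bases before to 50 bases after the annotated start) were matched by symbol for 27 of the 32 genes. They were searched on both strands for GGAATG, the core site of the TEAD factors through which YAP and TAZ act, for CACGTG, the E-box that TFE3 can bind, and for CCGGAAGT, an ETS site. The motifs do not overlap in the promoters shown, and capitals mark each match. The acetyltransferase genes KAT2A (chr17:42121318-42121617, minus strand) and KAT2B (chr3:20040196-20040495, plus strand) held none of the 3 motifs in this window. KAT14 (chr20:18144849-18145148, plus strand) and MBIP (chr14:36320588-36320887, minus strand) held 1 GGAATG match each, and TAF6L (chr11:62771146-62771445, plus strand) held 1 GGAATG and 1 CACGTG match.
KAT2A: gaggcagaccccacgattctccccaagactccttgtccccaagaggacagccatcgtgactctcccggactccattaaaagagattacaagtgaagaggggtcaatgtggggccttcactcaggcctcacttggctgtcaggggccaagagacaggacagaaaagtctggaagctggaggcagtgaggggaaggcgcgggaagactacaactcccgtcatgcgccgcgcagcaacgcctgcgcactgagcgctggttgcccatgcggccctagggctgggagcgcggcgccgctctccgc
KAT2B: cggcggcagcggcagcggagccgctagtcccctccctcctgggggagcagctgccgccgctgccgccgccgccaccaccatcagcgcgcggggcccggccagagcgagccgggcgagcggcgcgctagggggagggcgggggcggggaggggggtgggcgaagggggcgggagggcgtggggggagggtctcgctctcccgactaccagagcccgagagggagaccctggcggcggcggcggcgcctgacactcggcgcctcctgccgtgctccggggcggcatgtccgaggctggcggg
KAT14: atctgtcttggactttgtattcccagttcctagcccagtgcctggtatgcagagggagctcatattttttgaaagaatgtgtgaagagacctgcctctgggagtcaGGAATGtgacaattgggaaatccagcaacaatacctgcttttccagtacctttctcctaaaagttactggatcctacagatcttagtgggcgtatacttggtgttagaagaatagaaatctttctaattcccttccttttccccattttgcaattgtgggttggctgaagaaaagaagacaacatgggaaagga
MBIP: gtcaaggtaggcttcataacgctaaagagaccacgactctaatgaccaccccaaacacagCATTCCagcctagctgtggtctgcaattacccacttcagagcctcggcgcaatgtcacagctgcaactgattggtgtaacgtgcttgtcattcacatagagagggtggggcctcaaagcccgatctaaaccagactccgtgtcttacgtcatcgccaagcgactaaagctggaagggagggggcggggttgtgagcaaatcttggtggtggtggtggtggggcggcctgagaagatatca
TAF6L: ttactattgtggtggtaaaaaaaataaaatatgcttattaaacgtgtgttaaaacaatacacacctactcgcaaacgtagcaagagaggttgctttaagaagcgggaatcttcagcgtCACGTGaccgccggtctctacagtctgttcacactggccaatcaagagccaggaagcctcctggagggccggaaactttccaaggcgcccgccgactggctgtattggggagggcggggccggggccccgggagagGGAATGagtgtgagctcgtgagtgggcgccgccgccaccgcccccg
The KAT14 window belongs to a RefSeq start that lies inside the gene as GENCODE draws it, which begins upstream at 18137228, and the MBIP, TAF6L, KAT2A and KAT2B windows span their GENCODE starts. The KAT14 match began 144 bases before that RefSeq start and the MBIP match 190 bases before the MBIP start. In TAF6L the E-box began 132 bases before the start and the TEAD core 4 bases after it. The GGAATG motif was in 6 of the 27 promoters (MBIP, DR1, POLE3, KAT14, TAF6L and TAF10) and in 14.0% of 27305 promoters of the same length. CACGTG was in 4 (TADA1, TAF5L, TAF6L and TAF12) against 7.43% of all promoters, and CCGGAAGT in 2 (DR1 and TAF12) against 4.44%. A match is a description of the letters in the window, and whether any factor bound there was not measured in these libraries.

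The acetyltransferase genes KAT2A and KAT2B moved by different amounts, and both were called lower in YAP5SA and in the libraries labelled TAZ4SA. KAT2A (ENSG00000108773, chromosome 17, 42113111 to 42121367, minus strand) was at 102, 97.8 and 112 CPM in the EV libraries, and at 55.6, 56.4 and 50.5 CPM in YAP-TFE3. The groups did not overlap, and YAP-TFE3 was the lowest of all 8 groups, at a log2 fold change of -0.94 ± 0.08 (SE, adjusted p = 1.39e-09). In the libraries labelled TAZ4SA, KAT2A was at 85.0, 82.6 and 79.3 CPM (log2 fold change -0.34, adjusted p = 0.00142), and in YAP5SA at 73.0, 91.9 and 82.6 CPM (-0.33, adjusted p = 0.0018). TAZ-CAMTA1 had 88.4, 90.6 and 81.3 CPM, every library below EV, but the log2 fold change of -0.26 did not pass (adjusted p = 0.0659). TFE3 libraries had 104, 103 and 99.2 CPM and lay within the range of EV. EVsub, with 72.7, 75.7 and 74.7 CPM, was below EV at -0.48 (adjusted p = 9.3e-05), and CAMTA1 had 81.0, 80.9 and 73.0 CPM.

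KAT2B (ENSG00000114166, chromosome 3, 20040446 to 20154404, plus strand) had its lowest values in the groups of the activated parent proteins. It was at 30.4, 27.8 and 29.1 CPM in EV and at 11.1, 11.9 and 15.2 CPM in the libraries labelled TAZ4SA, which did not overlap (log2 fold change -1.19 ± 0.12, adjusted p = 1.08e-08). YAP5SA libraries had 15.9, 16.1 and 18.7 CPM (-0.78 ± 0.12, adjusted p = 5.68e-06). In YAP-TFE3 KAT2B was at 27.1, 25.4 and 29.2 CPM, overlapping EV, with a log2 fold change of -0.10. TAZ-CAMTA1 had the highest mean of the 8 groups, with 33.1, 38.9 and 38.9 CPM, every library above EV, yet the difference of 0.34 on the log2 scale did not pass in edgeR (adjusted p = 0.0773). EVsub libraries had 37.4, 33.4 and 35.1 CPM (0.28, adjusted p = 0.0536), CAMTA1 libraries 27.8, 32.4 and 29.0 CPM, and TFE3 libraries 27.3, 30.0 and 34.3 CPM.

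Read as a ratio of levels per kb of exon, KAT2A exceeded KAT2B in every library. The ratio was 4.93 ± 0.335 (SD, n = 3) in EV and 4.67 ± 0.642 in TFE3. It was 3.27 ± 0.402 in TAZ-CAMTA1 and 2.76 ± 0.344 in YAP-TFE3, and 6.77 ± 0.971 in YAP5SA and 9.10 ± 1.73 in the libraries labelled TAZ4SA. All libraries of both fusions lay below all EV libraries, which ran from 4.64 to 5.30, and all libraries of the activated parents lay above them, from 6.10 to 10.5. EVsub (2.92 ± 0.222) and CAMTA1 (3.65 ± 0.331) were also below EV. With 3 libraries against 3, an exact permutation test of such a ratio cannot give a two-sided p below 0.1, so no p is given. The 2 genes together came to 33.1 ± 2.00 CPM per kb in EV, 30.1 ± 1.27 in TAZ-CAMTA1, 19.6 ± 0.516 in YAP-TFE3, 25.1 ± 2.54 in YAP5SA and 24.2 ± 0.363 in the libraries labelled TAZ4SA, so the low ratio of YAP-TFE3 went with a lower KAT2A and that of TAZ-CAMTA1 with a sum closer to EV.

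**Figure D3:**
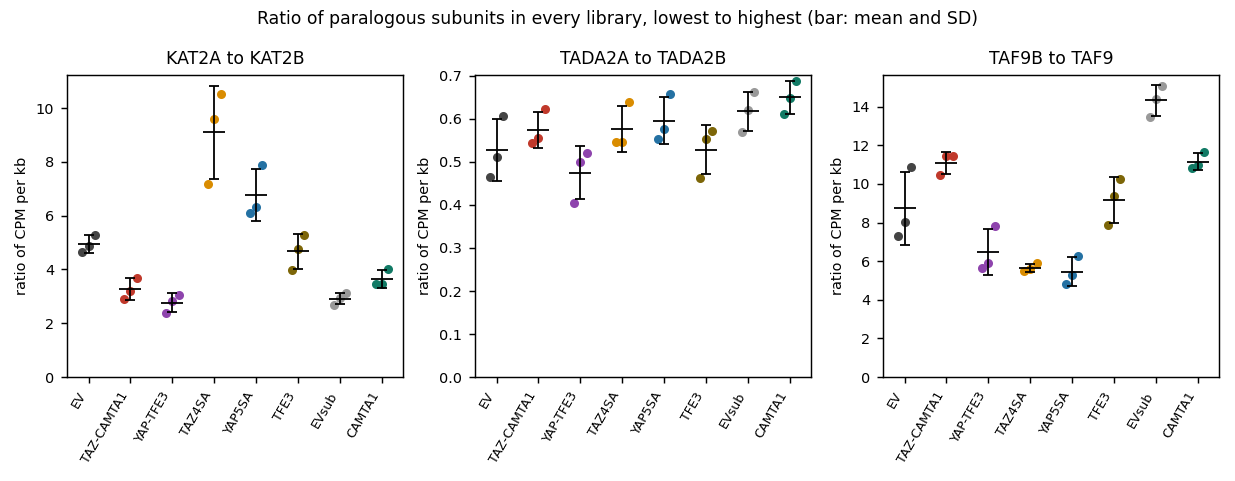
Ratio of CPM per kb between paralogous subunits (KAT2A to KAT2B, TADA2A to TADA2B, TAF9B to TAF9) in every library of the 8 groups, with mean and SD of 3 libraries. The KAT2A to KAT2B ratio lies at 2.39 to 3.69 in the libraries of the fusions, from 4.64 to 5.30 in EV, and from 6.10 to 10.5 in YAP5SA and the libraries labelled TAZ4SA.

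The other shared subunits are TADA3, which helps KAT2A act on nucleosomes, and SGF29, a reader of methylated histone H3. SGF29 was low in EV, at 9.04, 10.4 and 11.0 CPM, and was at 15.1, 16.1 and 14.9 CPM in the libraries labelled TAZ4SA (log2 fold change 0.60, adjusted p = 0.000226) and at 13.2, 12.7 and 12.3 CPM in YAP5SA (0.33, adjusted p = 0.031). All libraries of both groups lay above EV. The YAP5SA call was lost with total-count scaling (0.14, adjusted p = 0.323) and without EV replicate 1 (0.25, adjusted p = 0.152), EV replicate 2, YAP5SA replicate 1 or YAP5SA replicate 2. TADA3 varied among the EV libraries, at 102, 118 and 126 CPM, and was lower in YAP-TFE3, at 91.8, 97.6 and 79.0 CPM (-0.36, adjusted p = 0.0182). That call was lost without EV replicate 2, EV replicate 3 or YAP-TFE3 replicate 3, where the adjusted p was 0.0534, 0.0845 and 0.0874.

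Of the ATAC-only genes, YEATS2, whose YEATS domain reads acetylated histone H3, hardly moved. YEATS2 (ENSG00000163872, chromosome 3, 183697797 to 183812624, plus strand) was at 118, 120 and 115 CPM in EV, 122, 123 and 113 CPM in TAZ-CAMTA1 and 110, 113 and 105 CPM in YAP-TFE3. The TAZ-CAMTA1 libraries overlapped EV (log2 fold change 0.02, 95% interval -0.13 to 0.17). The YAP-TFE3 libraries all lay below EV (-0.11, 95% interval -0.25 to 0.04), and the libraries labelled TAZ4SA all above it (0.14, 95% interval -0.003 to 0.29). Neither difference passed. YAP5SA libraries also lay above EV, the lowest at 120.5 CPM against an EV maximum of 120.1 CPM. It was at 129, 137 and 124 CPM in the libraries labelled TAZ4SA and at 137, 135 and 120 CPM in YAP5SA, and passed only between YAP-TFE3 and YAP5SA (-0.26, adjusted p = 0.00531), a call that was lost without a filter on low counts (adjusted p = 0.0739) and in a fit of those 2 groups alone (adjusted p = 0.0567). EVsub libraries had 111, 115 and 114 CPM, CAMTA1 libraries 112, 122 and 105 CPM and TFE3 libraries 125, 121 and 108 CPM.

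ZZZ3, which binds the tail of histone H3 through its ZZ domain, was low with the activated parents and high before confluence. ZZZ3 (ENSG00000036549, chromosome 1, 77562416 to 77683419, minus strand) was at 50.4, 44.4 and 45.0 CPM in EV, 29.5, 29.9 and 40.6 CPM in YAP5SA and 26.4, 28.0 and 35.6 CPM in the libraries labelled TAZ4SA. Both groups lay below EV, YAP5SA at a log2 fold change of -0.48 (adjusted p = 0.0353) and the others at -0.64 (adjusted p = 0.00605), and the YAP5SA call was lost in 5 of the 6 fits that left out a library, with adjusted p from 0.0505 to 0.134 (all but that without YAP5SA replicate 3). The EVsub libraries, at 80.6, 64.5 and 72.8 CPM, were all above EV (0.64, adjusted p = 0.00747), and CAMTA1 had 78.4, 77.7 and 69.1 CPM. TAZ-CAMTA1 had 52.2, 51.4 and 58.8 CPM and TFE3 45.5, 59.3 and 62.2 CPM. The YAP-TFE3 libraries spread from 35.7 to 74.3 CPM (74.3, 57.6 and 35.7), on both sides of EV, and the log2 fold change of 0.26 did not pass.

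KAT14, the acetyltransferase particular to ATAC, was lower in 3 groups and tight among replicates. KAT14 (ENSG00000149474, chromosome 20, 18137228 to 18188387, plus strand) was at 38.6, 40.9 and 39.6 CPM in EV. It was at 28.1, 29.3 and 29.2 CPM in the libraries labelled TAZ4SA (-0.46, adjusted p = 1.05e-05), 31.6, 28.9 and 28.8 CPM in YAP5SA (-0.42, adjusted p = 4.44e-05) and 28.5, 30.2 and 32.9 CPM in YAP-TFE3 (-0.38, adjusted p = 9.93e-05). All 9 libraries lay below EV. TAZ-CAMTA1 fell between, at 35.5, 35.1 and 35.3 CPM, and TFE3 (39.5, 40.1 and 39.5 CPM), EVsub (38.9, 37.8 and 36.8 CPM) and CAMTA1 (37.2, 37.4 and 37.5 CPM) were not called.

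**Figure D4:**
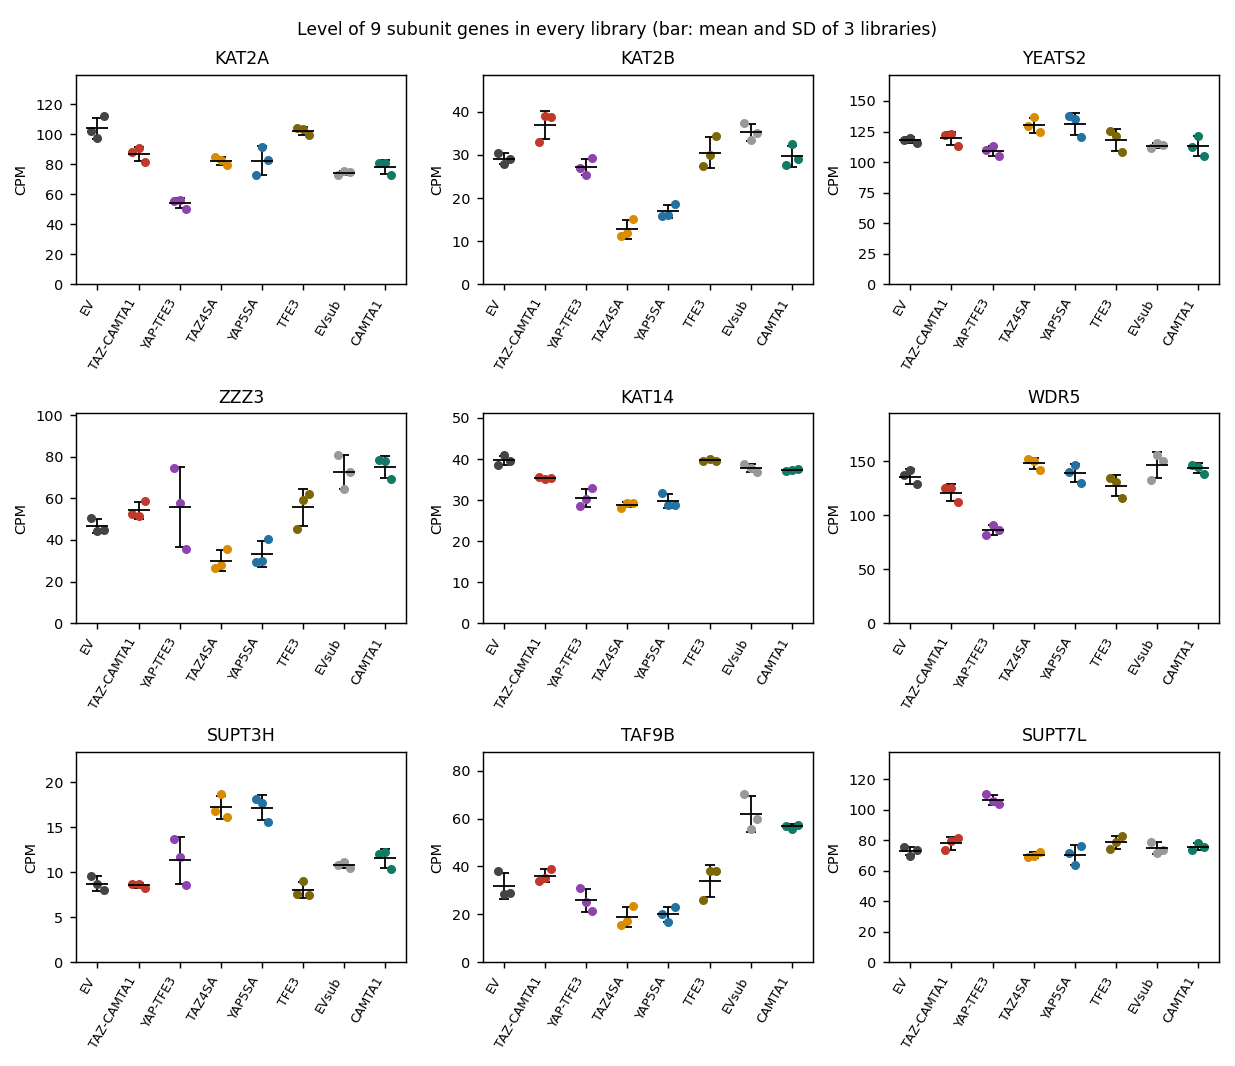
Level in CPM of 9 subunit genes in each of the 24 libraries by group, with mean and SD of 3 libraries on axes that start at 0. KAT2A and WDR5 are lowest in YAP-TFE3, KAT2B and ZZZ3 are lowest in YAP5SA and the libraries labelled TAZ4SA, where SUPT3H is highest, and the YAP-TFE3 libraries spread from 35.7 to 74.3 CPM for ZZZ3.

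In YAP-TFE3 against EV, 5 subunits were called higher and 14 lower, while 25.6% of all genes tested were called higher and 22.6% lower. Among the 10014 genes at or above the lowest subunit's level, 29.8% were higher and 27.2% lower. The median log2 fold change was -0.19 over the subunits and -0.01 over all genes. Among ATAC-only genes, 1 was higher and 5 lower, among shared genes 0 and 2, and among SAGA-only genes 4 and 7. WDR5, which presents the histone H3 tail to partner enzymes, was at 81.7, 91.3 and 86.8 CPM against 137, 142 and 129 CPM in EV (log2 fold change -0.65, adjusted p = 3.25e-07). HCFC1, a cofactor of many promoter-binding proteins, was at 145, 164 and 189 CPM against 233, 253 and 256 CPM (-0.58, adjusted p = 1.16e-05). TADA2A, the adaptor that gives ATAC its name, was at 12.9, 12.8 and 11.3 CPM against 16.7, 15.2 and 14.9 CPM (-0.34, adjusted p = 0.00677). None of these 3 overlapped EV. DR1, a histone-fold protein also known as negative cofactor 2 beta, was the ATAC-only gene that was higher, at 82.0, 78.9 and 50.3 CPM against 55.6, 46.3 and 43.9 CPM (0.53, adjusted p = 0.00331), and replicate 3 lay within the EV range. Its histone-fold relative POLE3 was called lower (-0.26, adjusted p = 0.0235) with overlapping libraries, and CHRAC1, the partner of POLE3, did not pass (-0.19, adjusted p = 0.0552).

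The SAGA-only genes called in YAP-TFE3 went in both directions, also within the SPT and ADA core and the deubiquitinase module. Of the SPT and ADA core, SUPT7L, a structural subunit, was at 110, 106 and 104 CPM against 75.2, 69.8 and 73.7 CPM in EV, with no overlap (log2 fold change 0.55, adjusted p = 1.46e-06). SUPT20H, which holds the core together, was at 57.4, 55.0 and 40.4 CPM against 38.0, 39.3 and 37.8 CPM (0.41, adjusted p = 0.0031). SUPT3H, at 13.7, 11.7 and 8.53 CPM, was also called higher (0.37, adjusted p = 0.026), although replicate 3 lay within the EV range of 7.95 to 9.56 CPM. In SUPT20H and ATXN7, replicate 3 was also the lowest, at 40.4 and 28.8 CPM against EV libraries of up to 39.3 and 28.2 CPM. TADA1 was lower (-0.39, adjusted p = 0.00293). SUPT7L (21% of exon bases) and SUPT20H (19.7%) have exons that overlap genes on the other strand. So do other genes called in YAP-TFE3, among them TAF6L (19.7%), TADA3 (13.7%), USP22 (13.3%) and WDR5 (11.2%). Of the TAF proteins, TAF5L (-0.35, adjusted p = 0.000887) and TAF6L (-0.45, adjusted p = 0.00686) were lower, and the TAF6L libraries overlapped EV. In the deubiquitinase module, ATXN7L3, which activates the enzyme, was at 80.9, 88.1 and 91.8 CPM against 108, 122 and 121 CPM (-0.43, adjusted p = 0.000666), USP22, the enzyme, was lower by a smaller amount (-0.27, adjusted p = 0.00817), and ATXN7, the anchor, was higher (0.37, adjusted p = 0.0127). TRRAP (-0.17, adjusted p = 0.0332) and SF3B3 (-0.44, adjusted p = 0.00147) were lower. Of the 19 calls, 6 were lost in at least 1 fit without a library: POLE3, TADA3, SUPT3H, TAF6L, ATXN7 and TRRAP, with adjusted p from 0.052 to 0.22 in fits without YAP-TFE3 replicate 1, 2 or 3 or EV replicate 2 or 3. With total-count scaling, SUPT3H (0.29, adjusted p = 0.0851) and ATXN7 (0.28, adjusted p = 0.089) no longer passed. All 10 cell-cycle genes were lower in these libraries (median log2 fold change -1.29), with sums of 957, 890 and 1324 CPM in replicates 1, 2 and 3. Adipocyte genes (mainly LPL and PPARG) summed to 304 to 370 CPM and endothelial genes to 35.6 to 52.8 CPM, outside the EV ranges. The part of these lists in the subunits' levels was not tested.

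Against EV, the libraries labelled TAZ4SA had 3 subunits higher and 8 lower (25.1% and 24.2% of all genes tested), and YAP5SA had 3 higher and 7 lower (22.7% and 21.6%). Among the 10014 genes at or above the lowest subunit's level these shares were 30.8% and 26.9%, and 27.9% and 23.5%. Both comparisons share the EV libraries. The same genes were the higher ones in both: SUPT3H, SGF29 and TRRAP. SUPT3H, a core subunit with histone folds, was at 16.8, 18.6 and 16.2 CPM in the libraries labelled TAZ4SA (log2 fold change 0.98, adjusted p = 2.15e-06) and 18.1, 17.7 and 15.6 CPM in YAP5SA (0.97, adjusted p = 2.74e-06) against 9.56, 8.65 and 7.95 CPM in EV. TRRAP, a large scaffold that SAGA shares with the NuA4 acetyltransferase complex, was at 332, 331 and 324 CPM (0.42, adjusted p = 1.3e-05) and 312, 311 and 304 CPM (0.32, adjusted p = 0.000287) against 228, 258 and 254 CPM. No library of either group overlapped EV for these 2 genes.

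The lower subunits in these groups, beside KAT2A, KAT2B, ZZZ3 and KAT14, were MBIP and TAF9B in both, ENY2 and TADA1 in the libraries labelled TAZ4SA, and HCFC1 in YAP5SA. TAF9B, a histone-fold TAF, was at 38.1, 28.4 and 28.8 CPM in EV, 15.3, 17.3 and 23.5 CPM in the libraries labelled TAZ4SA (-0.77, adjusted p = 0.000596) and 20.1, 16.8 and 22.9 CPM in YAP5SA (-0.67, adjusted p = 0.00225). Each library lay below EV, and replicate 3 was the highest of either set. ENY2, a small protein of the deubiquitinase module, was at 35.8, 37.3 and 36.7 CPM against 56.4, 50.9 and 51.8 CPM (-0.54, adjusted p = 1.04e-05). MBIP was at -0.48 (adjusted p = 0.00642) and -0.41 (adjusted p = 0.0207), TADA1 at -0.39 (adjusted p = 0.00373) and HCFC1 at -0.34 (adjusted p = 0.00418) on the log2 scale. The MBIP call was lost without TAZ4SA replicate 1 (adjusted p = 0.0513), and in YAP5SA it was lost without EV replicate 1 or 3 or YAP5SA replicate 1 or 2 (0.051 to 0.111). Scaling by total counts moved the median gene by -0.20 and -0.19 in these comparisons and gave 3 higher and 18 lower subunits for the libraries labelled TAZ4SA, and 2 higher and 17 lower for YAP5SA, so the split between higher and lower calls depended on the scaling. Mesenchymal genes summed to 1699 to 2632 CPM in the libraries labelled TAZ4SA and 1710 to 3256 CPM in YAP5SA, endothelial genes to 31.6 to 52.0 and 13.2 to 18.2 CPM, and adipocyte genes to 64.2 to 74.5 and 118 to 132 CPM, each below EV, and their part in the subunits' levels was not tested. The median log2 fold change was -0.06 and -0.07 over the subunits, against -0.03 and -0.04 over all genes.

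In TAZ-CAMTA1 against EV, edgeR called 0 of the 32 subunits (3.55% of all genes were called higher and 1.44% lower). At an unadjusted p under 0.05 there were 7, and DESeq2 called 3: KAT2A (-0.27, adjusted p = 0.0212), KAT2B (0.34, adjusted p = 0.045) and ENY2 (0.27, adjusted p = 0.026). ENY2 was at 63.4, 64.9 and 64.2 CPM against 56.4, 50.9 and 51.8 CPM in EV, every library above, with an edgeR adjusted p of 0.0522. SF3B5, a splicing factor, had the lowest log2 fold change, at 56.3, 51.3 and 49.7 CPM against 60.1, 64.1 and 68.9 CPM (-0.30). The log2 fold changes of the 32 subunits lay between -0.30 and 0.34. Mesenchymal genes summed to 5490 to 7131 CPM in TAZ-CAMTA1, above EV, and their part was not tested. In TFE3 against EV, edgeR and DESeq2 each called 0 subunits and 0 passed an unadjusted p of 0.05, and the log2 fold changes lay between -0.17 and 0.26 (0.035% of all genes were called higher and 0% lower). In CAMTA1 against EVsub, edgeR called 1 subunit, TRRAP, which was higher at 276, 274 and 252 CPM against 220, 225 and 220 CPM (0.27, adjusted p = 0.0274), where 1.26% of all genes were higher and 0.57% lower. That call was lost in 5 of 6 fits without a library (adjusted p from 0.0905 to 0.146, all but that without CAMTA1 replicate 3). USP22, at 444, 446 and 457 CPM against 333, 375 and 382 CPM, had 0.31 on the log2 scale and an adjusted p of 0.0505. Adipocyte genes summed to 108 to 113 CPM in CAMTA1 against 205 to 237 CPM in EVsub. Endothelial genes summed to 25.4 to 29 against 32.1 to 47.2 CPM and mesenchymal genes to 2839 to 3446 against 2523 to 2710 CPM, and the part of these lists was not tested.

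The empty vector cells collected before confluence had a different profile from the confluent ones. In EVsub against EV, 10 subunits were higher and 2 lower, where 19.8% of all genes tested were called higher and 17.1% lower. Among the 10014 genes at or above the lowest subunit's level, 31.1% were higher, near the share of the subunits, and 17.9% lower. The median log2 fold change was 0.12 over the subunits and -0.02 over all genes. Of the 10 ATAC-only genes, 5 were higher and 0 lower. TAF9B showed the largest difference, at 70.2, 55.5 and 59.8 CPM against 38.1, 28.4 and 28.8 CPM (0.96, adjusted p = 0.000106), followed by ZZZ3. DR1 was at 76.6, 66.6 and 71.2 CPM against 55.6, 46.3 and 43.9 CPM (0.56, adjusted p = 0.00383). ENY2 (0.46, adjusted p = 0.000145), MBIP (0.45, adjusted p = 0.012), POLE3 (0.29, adjusted p = 0.0156), TAF5L (0.29, adjusted p = 0.00715), CHRAC1 (0.23, adjusted p = 0.0287), SUPT20H (0.30, adjusted p = 0.032) and ATXN7 (0.31, adjusted p = 0.0469) were also higher. Beside KAT2A, ATXN7L3 was lower, at 85.0, 90.7 and 92.1 CPM against 108, 122 and 121 CPM (-0.39, adjusted p = 0.00276). MBIP, CHRAC1, SUPT20H and ATXN7 lost their call in at least 1 of the 6 fits without a library (adjusted p from 0.0519 to 0.138) and with total-count scaling (adjusted p = 0.054, 0.0893, 0.135 and 0.177). Of the 10 cell-cycle genes, 6 were higher in EVsub (median log2 fold change 0.71), mesenchymal genes summed to 2523 to 2710 CPM and endothelial genes to 32.1 to 47.2 CPM, below EV, and their part in the subunits' levels was not tested. TAF9B, ZZZ3, MBIP and ENY2 were called higher before confluence and lower in the libraries labelled TAZ4SA, both against the same EV libraries. DR1, POLE3, TAF5L, CHRAC1, SUPT20H and ATXN7 were called higher before confluence but not lower in the libraries labelled TAZ4SA, and KAT2A was lower in both. The share of all genes with such opposite calls was not computed.

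The pairs TAF9B and TAF9, and TADA2A and TADA2B, were read as per-length ratios in the same way as the acetyltransferases. TAF9B exceeded TAF9 by 8.73 ± 1.88 (SD, n = 3) in EV, 14.3 ± 0.821 in EVsub and 11.1 ± 0.435 in CAMTA1. The ratio was 5.65 ± 0.220 in the libraries labelled TAZ4SA, 5.46 ± 0.739 in YAP5SA and 6.45 ± 1.19 in YAP-TFE3, of which the first 2 did not overlap EV. The size of this ratio depends on the length used, and per kb of the longest transcript it was 5.51 in EV and 9.04 in EVsub, while the KAT2A to KAT2B ratio of EV was 5.06. TAF9 itself was called in none of the 10 comparisons, with EV libraries at 9.70, 10.8 and 9.94 CPM. TADA2A was at 0.528 ± 0.0721 times TADA2B in EV, 0.475 ± 0.0615 in YAP-TFE3 and 0.574 ± 0.0428 in TAZ-CAMTA1, and the fusion groups overlapped EV. CAMTA1, at 0.650 ± 0.0386 times, overlapped its control EVsub, at 0.618 ± 0.0457 times.

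Setting each fusion against the activated form of its parent asks where the fusion departs from it. In TAZ-CAMTA1 against the libraries labelled TAZ4SA, 9 subunits were higher and 7 lower, with 26.9% of all genes higher and 26.8% lower (30.6% and 33.7% of the 10014 genes at or above the lowest subunit's level). Of the higher genes KAT2B differed most, at 33.1, 38.9 and 38.9 CPM against 11.1, 11.9 and 15.2 CPM (log2 fold change 1.53 ± 0.12, adjusted p = 1.37e-10), followed by TAF9B, at 33.8, 35.2 and 39.1 CPM in TAZ-CAMTA1 (0.95, adjusted p = 4.85e-05), and ZZZ3 (0.85, adjusted p = 0.000399), with no overlap of libraries. ENY2 (0.81, adjusted p = 2.01e-08) and MBIP (0.71, adjusted p = 0.00015) were higher as well. SUPT3H was the lowest, at 8.68, 8.70 and 8.21 CPM against 16.8, 18.6 and 16.2 CPM (-1.01, adjusted p = 1.01e-06), followed by SGF29, at 10.9, 10.2 and 9.81 CPM in TAZ-CAMTA1 (-0.58, adjusted p = 0.000271). SF3B5, at 76.0, 77.3 and 69.3 CPM in the libraries labelled TAZ4SA, was also lower in TAZ-CAMTA1 (-0.50, adjusted p = 0.000405). Total-count scaling moved the median gene by 0.20 here, and the calls of WDR5, POLE3, TAF5L and TRRAP, all lower, were lost with it (adjusted p from 0.066 to 0.941). TAF5L and ATXN7 lost their calls without 1 of 4 libraries (TAZ4SA replicates 1 and 2, TAZ-CAMTA1 replicates 2 and 3). Mesenchymal genes summed to 5490 to 7131 CPM in TAZ-CAMTA1 against 1699 to 2632 CPM in the libraries labelled TAZ4SA. Adipocyte genes summed to 173 to 235 against 64.2 to 74.5 CPM, and endothelial genes to 77.4 to 123 against 31.6 to 52.0 CPM. Of the 10 cell-cycle genes, 2 were higher and 2 lower, and the part of these lists was not tested.

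In YAP-TFE3 against YAP5SA, 7 subunits were higher and 14 lower, with 28.1% of all genes higher and 24.3% lower (31.8% and 31.1% of the 10014 genes at or above the lowest subunit's level). Of the 10 ATAC-only genes 9 were called, 3 higher and 6 lower. WDR5 was at 81.7, 91.3 and 86.8 CPM against 140, 147 and 130 CPM (-0.68, adjusted p = 1.37e-07), and KAT2A at -0.61 (adjusted p = 1.14e-06) with no overlap. KAT2B (0.69, adjusted p = 2.12e-05) and ZZZ3 (0.74, adjusted p = 0.00144) were higher, as was SUPT20H, at 29.6 to 36.7 CPM in the YAP5SA libraries (0.63, adjusted p = 3.13e-05), and the ZZZ3 libraries of the 2 groups overlapped. SUPT3H (-0.60, adjusted p = 0.000506) and TRRAP (-0.50, adjusted p = 8.71e-07) were lower in YAP-TFE3. MBIP, HCFC1, TADA3 and SF3B3 lost their call without 1 of 5 libraries (YAP-TFE3 replicates 1 to 3, YAP5SA replicates 1 and 2), and HCFC1 (adjusted p = 0.135) and TADA3 (adjusted p = 0.0856) also with total-count scaling. All 10 cell-cycle genes were lower in YAP-TFE3 than in YAP5SA (median log2 fold change -1.41). Adipocyte genes summed to 304 to 370 against 118 to 132 CPM, endothelial genes to 35.6 to 52.8 against 13.2 to 18.2 CPM and mesenchymal genes to 3700 to 5162 against 1710 to 3256 CPM. The part of these lists was not tested.

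Between the fusions, TAZ-CAMTA1 had 14 subunits higher than YAP-TFE3 and 4 lower, while 19.9% of all genes tested were higher and 22.8% lower (24% and 26.4% of the 10014 genes at or above the lowest subunit's level). The median log2 fold change was 0.18 over the subunits and 0.01 over all genes. KAT2A was higher by 0.68 (adjusted p = 3.32e-07) and WDR5, at 125, 126 and 112 CPM in TAZ-CAMTA1, by 0.48 (adjusted p = 2.81e-05). TAF9B was at 33.8, 35.2 and 39.1 CPM in TAZ-CAMTA1 and 31.0, 25.2 and 21.3 CPM in YAP-TFE3, higher by 0.48 (adjusted p = 0.0203). HCFC1 was higher by 0.47 (adjusted p = 0.000183) and KAT2B by 0.44 (adjusted p = 0.00235). In these 5 genes, named because they were called, every TAZ-CAMTA1 library lay above every YAP-TFE3 library. The 4 lower genes were DR1, at 43.9, 50.9 and 53.6 CPM in TAZ-CAMTA1 (-0.51, adjusted p = 0.00555), SUPT7L, at 73.4, 79.2 and 81.7 CPM (-0.45, adjusted p = 2.73e-05), SUPT3H (-0.41, adjusted p = 0.0167) and SUPT20H (-0.29, adjusted p = 0.0317), of which only SUPT7L showed no overlap. Among the 18 calls, 7 (KAT14, SUPT3H, SUPT20H, TAF6L, TAF9B, ATXN7L3 and SF3B3) were lost without 1 of 5 libraries (TAZ-CAMTA1 replicates 1 and 3, YAP-TFE3 replicates 1 to 3) with adjusted p from 0.0507 to 0.178, and SUPT3H (adjusted p = 0.0565) and SUPT20H (adjusted p = 0.178) did not pass with total-count scaling. In a fit of the 2 groups alone DR1 (adjusted p = 0.0622), SUPT3H (0.133) and KAT14 (0.092) did not pass. All 10 cell-cycle genes were higher in TAZ-CAMTA1 than in YAP-TFE3 (median log2 fold change 1.28). Adipocyte genes summed to 173 to 235 CPM against 304 to 370 CPM, endothelial genes to 77.4 to 123 CPM against 35.6 to 52.8 CPM and mesenchymal genes to 5490 to 7131 CPM against 3700 to 5162 CPM. The part of these lists was not tested. The plot of shares called sets the subunits beside all genes in the 10 comparisons.

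**Figure D5:**
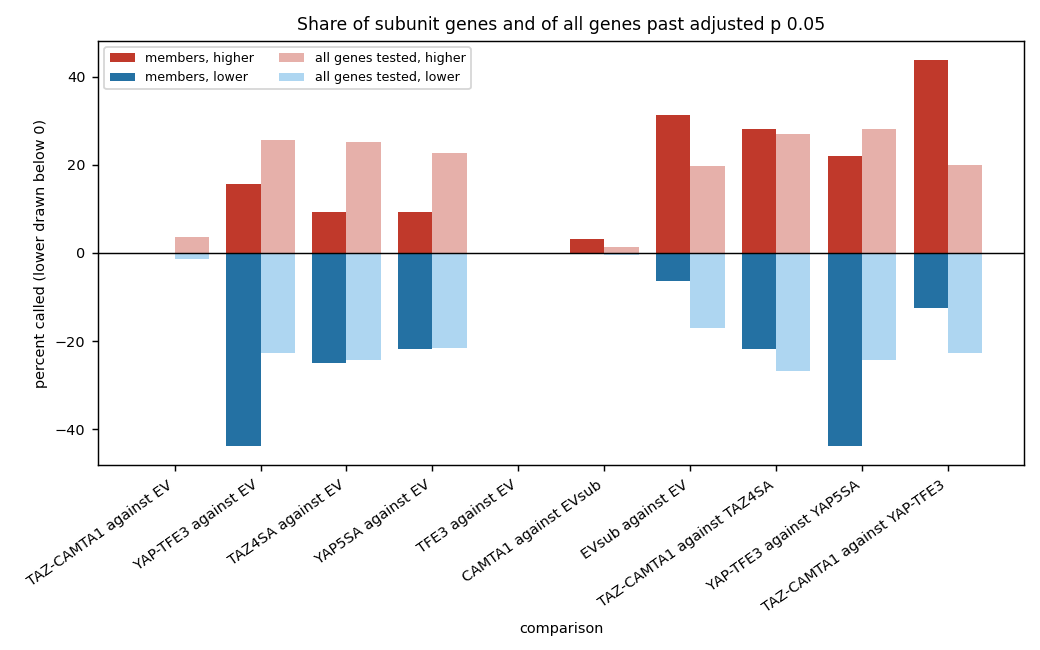
Percent of the 32 subunit genes (dark bars) and of all 19997 genes tested (light bars) called higher, above 0, or lower, drawn below 0, at an edgeR adjusted p under 0.05 in 10 comparisons. In YAP-TFE3 against EV 14 subunits were lower and 5 higher, where all genes were 22.6% lower and 25.6% higher.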

How the data were processed

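Poly(A) RNA of SW872 cells was sequenced in 24 libraries, 3 for each of 8 groups taken from the titles. The deposited values were raw counts per Ensembl gene that the authors made in the bcbio-nextgen workflow on hg38, 1 table per library, and they were neither normalized nor pooled. Which tool counted the reads, whether it used strand and what it did with ambiguous reads were not given in the sources used here, so subunits that share exons with another gene are uncertain. The study's own tests rested on salmon estimates and DESeq2.

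Counts were fitted over all 24 libraries with 1 mean per group by the quasi-likelihood test of edgeR 4.0.16 in R 4.3.3, with TMM scaling, on 19997 genes that averaged 5 counts or more. A gene was called at a Benjamini-Hochberg adjusted p under 0.05 over those genes. Levels are CPM, and per-length levels divide by the union of exons in GENCODE. Library totals were 19700277 to 35287476 counts, and precision is limited by 3 libraries per group. P-values rest on a spread within groups that was estimated over all 24 libraries, and not from the groups compared alone. A group with wider spread therefore shares the estimate of tighter ones. An example is ZZZ3, with an SD of 19.4 CPM in YAP-TFE3 and 3.31 CPM in EV.

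Every subunit was named with its level. Values in every library were given for YEATS2, ZZZ3, KAT14, KAT2A and KAT2B and for up to 3 called members higher and 3 lower per comparison, ranked by absolute log2 fold change. The per-library values of TADA3, TADA2A and USP22, and further called members, were added after their values were seen. Overlap of libraries is described for named genes only, and the share of all genes without overlap was not computed. Other lists were partner subunits outside the members, TFIID, NuA4, genes of the study's hairpin screen, cell-cycle genes and markers of other cell types. The members and lists were chosen with earlier results of these data known.

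Replicate numbers recur in every group. The correlation of deviations between same-numbered libraries averaged -0.0257 to 0.129 over the comparisons and did not exceed 0.1 in all 3 pairs of any. It exceeded 0.1 in 2 pairs of YAP-TFE3 against EV and of TAZ-CAMTA1 against the libraries labelled TAZ4SA. Groups that were not compared were not checked. The numbers were not taken to pair libraries in the main fit, and an effect shared by replicate number was examined only through the replicate block. No 2 libraries of a group agreed within sampling noise. Disagreement was widest in YAP-TFE3, with a chi-square per gene of up to 73.7 between its libraries, against up to 28.1 in TFE3, the next widest. Alternatives were a replicate block, DESeq2 1.42.0 and its size factors, total-count scaling, other filters, fits on the 2 groups compared and fits without each library. The scripts were tested on simulated data. Promoters were read from RefSeq.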

Additional observations from a re-analysis of the deposited data

How the results depend on the processing

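No direction among the 108 calls of subunits in the 10 comparisons was reversed by any scaling, the replicate block or leaving out a library. Of these calls, 0 were lost with DESeq2 size factors and 0 with DESeq2, 15 with total-count scaling, 1 with the replicate block and 28 in at least 1 fit without a library. In the fit with the replicate block, edgeR called 19 subunits in YAP-TFE3 against EV and 11 in the libraries labelled TAZ4SA, 10 in YAP5SA, and the lost call was ATXN7 in EVsub (0.31, adjusted p = 0.0556). In TAZ-CAMTA1 against EV the count of 0 became 1 (KAT2A) with a mean of at least 20 counts, 3 (KAT2B, ENY2 and SF3B5) in a fit of the 2 groups alone and 3 with DESeq2. Total-count scaling gave 21 called subunits for the libraries labelled TAZ4SA and 19 for YAP5SA. In CAMTA1 against EVsub the count of 1 became 2 with total-count scaling, a mean of at least 20 counts, the 2 groups alone or DESeq2, and 0 without a filter. Leaving out a library gave 0 called subunits in each fit of TAZ-CAMTA1 and of TFE3 against EV, 14 to 23 in YAP-TFE3, 10 to 12 in the libraries labelled TAZ4SA, 7 to 14 in YAP5SA, 0 to 1 in CAMTA1, 8 to 13 in EVsub, 14 to 17 in TAZ-CAMTA1 against the libraries labelled TAZ4SA, 18 to 24 in YAP-TFE3 against YAP5SA and 13 to 20 between the fusions. Every subunit had at least 164 counts in each library, and the precision is limited by 3 libraries a group.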

Other observations

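Genes related to both complexes, other than the 32 subunits, were measured in the same fit against EV, in comparisons that share the EV libraries. Counts of called genes are to be read against all genes tested, of which 3.55% were called higher and 1.44% lower in TAZ-CAMTA1, 25.6% and 22.6% in YAP-TFE3, 22.7% and 21.6% in YAP5SA, 25.1% and 24.2% in the libraries labelled TAZ4SA and 19.8% and 17.1% in EVsub. Of 7 partner genes, alternative subunits of the deubiquitinase module and of ATAC among them, 1 passed in TAZ-CAMTA1 (0 higher and 1 lower), 5 in YAP-TFE3 (2 and 3), 4 in YAP5SA (1 and 3), 5 in the libraries labelled TAZ4SA (1 and 4) and 3 in EVsub (1 and 2). ATXN7L2, a paralog of the anchor ATXN7, was at 12.9 ± 1.46 CPM (SD, n = 3) in EV, 5.04 ± 0.291 CPM in YAP-TFE3 (log2 fold change -1.35, edgeR adjusted p = 3.37e-10) and 9.72 ± 0.442 CPM in TAZ-CAMTA1 (-0.40, adjusted p = 0.0226). It was also lower in YAP5SA, at 7.68 ± 0.422 CPM (-0.74, adjusted p = 4.18e-06), and in EVsub, at 8.98 ± 0.569 CPM (-0.52, adjusted p = 0.000508). ATXN7L1, another paralog, was higher in YAP-TFE3, at 42.4 ± 5.12 CPM against 17.2 ± 0.496 CPM (1.30, adjusted p = 2.61e-10). USP51, a ubiquitin protease that can take the place of USP22, was at 2.92 ± 0.400 CPM in EV, 1.15 ± 0.130 CPM in the libraries labelled TAZ4SA (-1.35, adjusted p = 1.22e-05) and 1.15 ± 0.121 CPM in YAP5SA (-1.35, adjusted p = 1.72e-05).

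TFIID, the general factor that shares TAF proteins with SAGA, had 5 of its 11 other subunits called in YAP-TFE3 (2 higher and 3 lower), 6 in YAP5SA (4 and 2), 7 in the libraries labelled TAZ4SA (4 and 3) and 3 in EVsub (3 and 0). TAF13 was at 12.8 ± 0.875 CPM in EV, 20.8 ± 4.15 CPM in YAP-TFE3 (0.70, adjusted p = 0.000186), 8.54 ± 0.630 CPM in the libraries labelled TAZ4SA (-0.58, adjusted p = 0.00167) and 23.8 ± 4.07 CPM in EVsub (0.90, adjusted p = 3.71e-05). Of 16 subunits of NuA4, which shares TRRAP with SAGA, 8 were called in YAP-TFE3 (2 higher and 6 lower), 10 in YAP5SA (5 and 5), 12 in the libraries labelled TAZ4SA (6 and 6) and 7 in EVsub (5 and 2), and BRD8, its bromodomain subunit, was at 134 ± 3.09 CPM in YAP-TFE3 against 231 ± 8.95 CPM (-0.78, adjusted p = 1.75e-10). Of 15 other genes of the study's hairpin screen, 1 was called in TAZ-CAMTA1 (higher), 4 in YAP-TFE3 (1 higher and 3 lower), 8 in YAP5SA (2 and 6) and 9 in the libraries labelled TAZ4SA (3 and 6). TRIM24, a bromodomain coregulator, was measured at 62.5 ± 5.18 CPM in EV and was higher in TAZ-CAMTA1, at 77.9 ± 5.56 CPM (0.32, adjusted p = 0.0269). It was lower at 36.0 ± 2.33 CPM in YAP-TFE3 (-0.80, adjusted p = 4.01e-08), 32.7 ± 2.30 CPM in YAP5SA (-0.94, adjusted p = 3.61e-09) and 29.0 ± 1.18 CPM in the libraries labelled TAZ4SA (-1.11, adjusted p = 2.08e-10).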
